A study of Mus musculus with 4 samples.

Results

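The core genes of the circadian clock were followed in mouse embryonic fibroblasts (MEF cells), connective tissue cells cultured from embryos, with and without genistein, a plant isoflavone. The members were 10 genes taken by symbol from the deposited count table of 47937 genes, namely Arntl (also called Bmal1), Clock, Per1, Per2, Per3, Cry1, Cry2, Nr1d1, Nr1d2 and Dbp. All 10 were found, and all 10 passed the filter on low counts, which kept 16240 genes. Total RNA of untreated wild-type MEF cells (2 libraries) and of MEF cells given genistein at 50 µM for 24 h (2 libraries) was sequenced after depletion of ribosomal RNA. In the labels the genotype field of the treated libraries reads "Genistein treated" in place of wild-type. In other assays of the study untreated cells received the solvent DMSO, and its cell cycle profiles came from asynchronous cultures. In those profiles genistein at 50 µM for 24 h moved most cells to the G2/M phase. The study also reported DNA damage and more apoptotic cells after genistein. The part of these changes in the values below was not tested. For these libraries by name, the sources used here do not give the solvent, a change of medium, any synchronisation or the hour of harvest. Genistein and any such difference in handling cannot be told apart, and a shift of phase and a change of mean level cannot be told apart at a single harvest. Nothing in the labels says that replicate libraries came from separate cultures, so the p-values measure only the spread between these libraries, which may be technical.

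The mammalian clock is a transcriptional feedback loop that runs in most cells, fibroblasts in culture included. The proteins of Clock and Arntl form a heterodimer that binds E-box elements and activates the Per, Cry, Nr1d and Dbp genes. The PER and CRY proteins then return to the nucleus and repress the heterodimer. In an auxiliary loop the nuclear receptors REV-ERBα and REV-ERBβ, encoded by Nr1d1 and Nr1d2, repress Arntl and other genes through REV-ERB and ROR response elements (RRE), while the ROR receptors activate through the same elements. DBP and its relatives TEF and HLF activate genes with a D-box, which NFIL3 represses.

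Stretches of the member promoters that hold such an element are shown because the loop is described through these elements. The windows ran from 250 bases before to 50 bases after each RefSeq transcription start on GRCm38, and 9 of the 10 members matched a window by symbol, all but Per2. The letters searched on both strands were CACGTG for the E-box, CACGTT for a variant E-box, TTATGTAA and TTACGTAA for the D-box, TAGGTCA and TGGGTCA for the core of the RRE, and TGACGTCA for the cyclic AMP response element. These motifs do not contain one another. In the sequences below, written 5′ to 3′ on the strand of the gene, the capitals mark the match.
Per1, E-box, chr11:69098772-69098799, plus strand: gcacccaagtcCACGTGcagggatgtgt
Cry1, E-box, chr10:85185098-85185125, minus strand: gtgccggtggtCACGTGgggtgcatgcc
Cry1, variant E-box, chr10:85185117-85185144, minus strand: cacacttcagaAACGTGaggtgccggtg
Cry2, variant E-box, chr2:92434219-92434246, minus strand: cacatggtgggAACGTGagggggcggag
Nr1d1, variant E-box, chr11:98775389-98775416, minus strand: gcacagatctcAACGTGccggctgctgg
Per3, D-box, chr4:151044852-151044881, minus strand: cgacccgcgcgTTATGTAAggtactcgggg
Per3, D-box, chr4:151044805-151044834, minus strand: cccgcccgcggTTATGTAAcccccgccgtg
Arntl, RRE core, chr7:113207530-113207558, plus strand: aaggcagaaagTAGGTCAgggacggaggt

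Per1 and Cry1 were the 2 members with an E-box, which 8.09% of all 27025 genes with a window held. Cry1, Cry2 and Nr1d1 held the variant E-box, against 5.44% of all genes. Per3 alone held the D-box, with 2 copies starting 205 and 158 bases before the transcription start, against 1.23% of all genes. Arntl alone held the RRE core, against 7.35% of all genes. It lay in the Arntl window from 113207261 to 113207560 and began 30 bases after the RefSeq start of that window. That start is not the gene start given for Arntl below. Some genes had several windows, 32851 in all, and a gene was counted when any of its windows held the element. No member window held the cyclic AMP response element, which 2.03% of all genes held. A match is a description of the sequence and not a measured binding site, and elements outside these windows were not searched.

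The main comparison asked how the clock genes stood after genistein relative to untreated cells. Apart from Cry1, which was lower, the repressor genes among the members and the output gene Dbp were higher. The activators Clock and Arntl did not pass the test. Per3 had the largest change, a 3.84-fold rise, and Cry1 was 37.4% lower. Of the 10 members, 7 were higher and 1 was lower at an adjusted p-value under 0.05 (quasi-likelihood test of edgeR, adjusted after Benjamini and Hochberg across the genes and repeats tested). Over all genes tested 71.7% were called at this threshold, 33.5% higher and 38.2% lower, so that being called is no distinction of the members. Their median log2 fold change was 0.78, against -0.03 over all genes tested. The study also required a log2 fold change beyond 1 in either direction and at least 100 normalised counts on average. By these thresholds 2 members passed as higher, Per3 and Nr1d1, and 0 as lower, against 8.08% of all genes, of which 3.92% were higher and 4.16% lower. Nr1d1 dropped out of that count without the first genistein library, where its log2 fold change was 0.98. In all 10 members the values of the 2 groups did not overlap, which held for 85.3% of all genes tested. In bulk RNA, fewer cells that express a gene and less RNA per cell cannot be told apart.

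**Figure D1:**
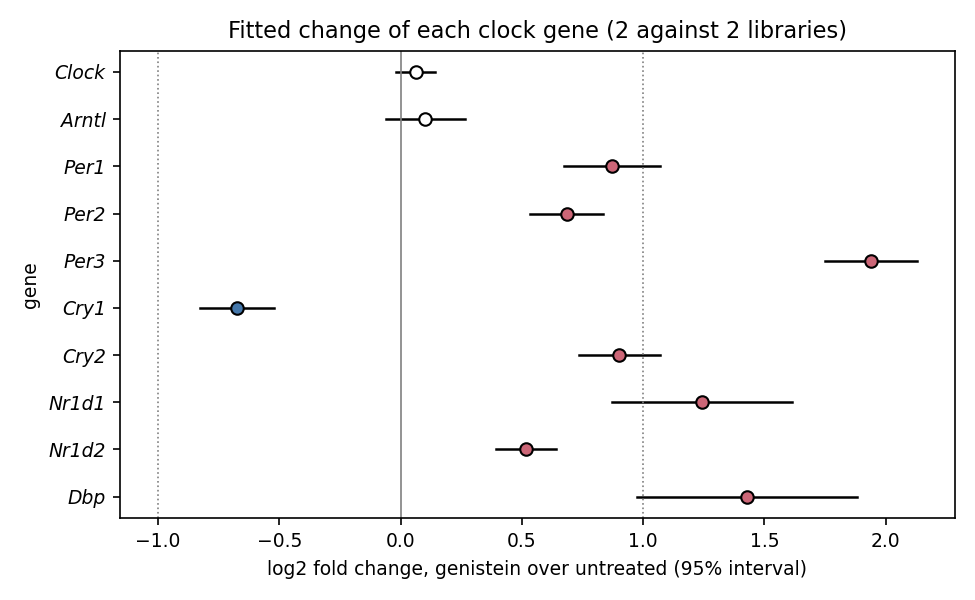
Fitted log2 fold change of each clock gene (horizontal axis, genistein over untreated) with its 95% interval, from 2 libraries against 2. Red points rose and the blue point fell at an adjusted p under 0.05, white points did not pass, and dotted lines mark log2 fold changes of -1 and 1. Per3 lies highest at 1.94, Cry1 lowest at -0.68, and the intervals of Clock and Arntl cross 0.

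Values below are normalised read counts, that is counts rescaled to the mean effective size of the 4 libraries. Clock (chromosome 5, 76209868 to 76304792) encodes the activator that pairs with BMAL1. Its normalised count was 2442 and 2521 in untreated cells and 2545 and 2636 with genistein. Both treated values lay above both untreated values, by less than the test could separate from the spread (log2 fold change 0.06 with a 95% interval from -0.02 to 0.14, adjusted p = 0.16, edgeR). With library totals alone or with scaling factors from genes alone it passed, at log2 fold changes of 0.13 and 0.11 (adjusted p = 0.011 and 0.021, edgeR). Over all alternatives other than the test against a fold threshold its adjusted p ranged from 0.011 to 0.56.

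Arntl (chromosome 7, 113207465 to 113314126) encodes BMAL1, the partner of CLOCK, and is itself the classical target of the REV-ERB receptors. It had normalised counts of 426 and 383 without and of 437 and 431 with genistein. The treated values lay just above the higher untreated value. Its log2 fold change of 0.10 had a 95% interval from -0.06 to 0.26 (adjusted p = 0.25, edgeR). The interval holds for this scaling and is not a bound on the change. Over the alternatives the log2 fold change of Arntl lay from 0.02 to 0.18.

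**Figure D2:**
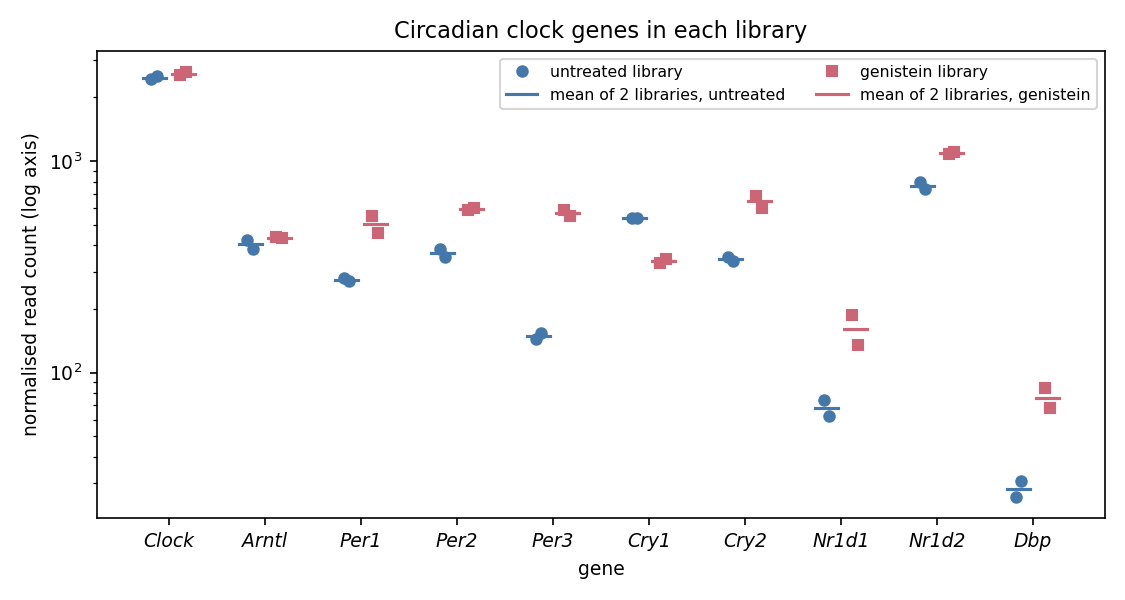
Normalised read count of each clock gene (vertical log axis) in the 2 untreated libraries (blue circles) and the 2 genistein libraries (red squares), with the group means as lines. Cry1 is the gene whose genistein values lie below its untreated values, while the counts of Clock and Arntl nearly meet.

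The 3 Period genes encode repressors that hold the CRY proteins in the inhibitory complex, and all 3 rose. Per3 (chromosome 4, 151003652 to 151044665), which carries the pair of D-boxes shown above, had normalised counts of 144 and 154 in untreated cells and of 589.8 and 549.6 with genistein. The lowest treated value was thus far above the highest untreated value. On the log2 scale the fold change was 1.94 ± 0.09 (standard error, adjusted p = 1.1e-11, edgeR), and 97.0% of all genes tested had an absolute log2 fold change no larger than that of Per3. It was also the 1 member that passed when the test was made against a log2 fold change of 1.

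Per1 (chromosome 11, 69095217 to 69109960) is the Period gene best known for a rapid response to serum, glucocorticoids and cyclic AMP. Its normalised counts were 279 and 272 without genistein and 550.4 and 456 with it. The genistein libraries differed by more than the untreated ones, yet both lay well above them. This amounted to a log2 fold change of 0.87 ± 0.09 (standard error, adjusted p = 3.5e-07, edgeR).

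Per2 (chromosome 1, 91415982 to 91459324), whose loss disrupts behavioural rhythms in mice, rose by a smaller amount. It went from 385 and 351 normalised counts to 586 and 598, with a close match between the treated libraries. Its log2 fold change was 0.68 ± 0.07 (standard error, adjusted p = 2.7e-07, edgeR). The 95% interval of Per3, from 1.75 to 2.13, lay above those of Per1, from 0.67 to 1.07, and Per2, from 0.53 to 0.84, while those of Per1 and Per2 overlapped.

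The 2 Cryptochrome genes, which encode the direct repressors of the CLOCK and BMAL1 pair, went in opposite directions. Cry1 (chromosome 10, 85131700 to 85185064) had normalised counts of 537 and 539 in untreated cells and of 330.1 and 344 with genistein. The untreated libraries were nearly identical and the treated values lay clearly below them. Cry1 thus had a log2 fold change of -0.68 ± 0.07 (standard error, adjusted p = 3.3e-07, edgeR).

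Cry2 (chromosome 2, 92403646 to 92434043) had normalised counts of 354 and 337 without genistein and of 686 and 602 with it. Its log2 fold change was 0.90 ± 0.08 (standard error, adjusted p = 2.8e-08, edgeR), and the 95% interval from 0.74 to 1.07 lay apart from that of Cry1, from -0.83 to -0.52. The order of the 2 counts within a library differed between the groups, but counts also depend on exon length. Merged exons span 3.34 kb in Cry1 and 6.32 kb in Cry2. Per kb of exons, Cry1 lay above Cry2 in untreated cells, at 161 and 161 against 56.0 and 53.3. With genistein the 2 genes overlapped, at 98.8 and 103 for Cry1 and 109 and 95.3 for Cry2. The log2 ratio of the counts of Cry2 over Cry1 was -0.60 and -0.68 in untreated cells and 1.06 and 0.81 with genistein.

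The REV-ERB genes rose as well. Nr1d1 (chromosome 11, 98767932 to 98775333), which encodes REV-ERBα, had normalised counts of 73.9 and 62.5 in untreated cells and of 188 and 135 with genistein. The treated libraries were far apart from each other, and the lower of them still exceeded both untreated libraries. Nr1d1 had a log2 fold change of 1.24 ± 0.17 (standard error, adjusted p = 8.2e-06, edgeR), which lay from 0.98 to 1.46 when each library was left out in turn.

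On the opposite strand, Thra, the thyroid hormone receptor α gene, shares 263 bases with the exons of Nr1d1, or 8.55% of them. Thra had normalised counts of 972 and 997 without and 1371 and 1283 with genistein, and its log2 fold change was 0.43 (edgeR, adjusted p = 1.8e-06). The library kit was stranded, but the strand option of the counter is not given in the sources used here. Reads from the shared bases therefore may not have been told apart, and their part in the value of Nr1d1 was not tested. The same limit holds for Cry2, whose exons share 295 bases, or 4.67%, with D930015M05Rik on the opposite strand. It also holds for Arntl, whose exons share 33 bases, or 0.44%, with Gm45355 on the opposite strand. D930015M05Rik did not pass the filter on low counts, and Gm45355 was not among the deposited counts.

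Nr1d2 (chromosome 14, 18204054 to 18239127), which encodes REV-ERBβ, changed less. Its normalised counts were 792 and 736 without genistein and 1078 and 1109 with it, and the replicates of each group lay close together. Its log2 fold change was 0.52 ± 0.06 (standard error, adjusted p = 6.0e-07, edgeR). Its 95% interval, from 0.39 to 0.64, lay below that of Nr1d1, from 0.87 to 1.61.

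Dbp (chromosome 7, 45705088 to 45710203) encodes the D-box activator, a direct E-box output of the clock. It was the member with the fewest reads, with raw counts of 26 and 29 in the untreated and of 90 and 67 in the genistein libraries. In normalised counts these were 26.0 and 30.7 against 84.4 and 67.8. Dbp had a log2 fold change of 1.43 ± 0.21 (standard error, adjusted p = 1.6e-05, edgeR), but its mean of 52.2 normalised counts was under the study's minimum of 100. The exons of Dbp share 539 bases, or 18.0% of their length, with Sphk2, the sphingosine kinase 2 gene on the opposite strand. Sphk2 drew more reads than Dbp, with 369 and 360.0 normalised counts without and 416 and 398 with genistein, and its log2 fold change was 0.16 (edgeR, adjusted p = 0.069), so that the same limit on strand holds as for Nr1d1.

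The levels of the members were then set side by side per length, as normalised counts per kb of merged exons. In untreated cells Clock was highest at 178 and 184 per kb, followed by Cry1 at 161 and 161 and Nr1d2 at 146 and 136. Per2 (65.7 and 60.0), Cry2 (56.0 and 53.3), Arntl (56.6 and 50.9) and Per1 (49.5 and 48.3) formed a middle range. Nr1d1 (24.0 and 20.3), Per3 (14.97 and 16.0) and Dbp (8.68 and 10.3) were lowest. Among neighbours in this order, only the values of Cry2 and Arntl overlapped.

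With genistein the order changed. Nr1d2, at 199 and 205 per kb, came to lie above Clock, at 185 and 192. Cry2 (109 and 95.3), Per2 (100.1 and 102) and Cry1 (98.8 and 103) could no longer be ordered beyond their spread, and Per1 (97.8 and 81.1) came next, overlapping Cry2. Per3 (61.4 and 57.2) rose from the ninth to the seventh place and its values overlapped those of Arntl (58.1 and 57.3), which in turn lay within the wide range of Nr1d1 (60.9 and 43.8). Dbp stayed lowest at 28.2 and 22.7 per kb.

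Ratios within a library do not depend on the scaling, and they were formed between the Period, Cryptochrome and REV-ERB genes or Dbp and Arntl. The log2 ratio of Per3 over Arntl was -1.56 and -1.32 in the untreated and 0.43 and 0.35 in the genistein libraries, a difference of 1.83. That of Dbp over Arntl rose by 1.32, from -4.03 and -3.64 to -2.37 and -2.67. Nr1d1 over Arntl differed by 1.12, with -2.53 and -2.62 against -1.22 and -1.68. The differences were 0.76 for Per1, 0.58 for Per2, 0.41 for Nr1d2 and 0.79 for Cry2. Cry1 over Arntl went the other way, from 0.34 and 0.49 in untreated cells to -0.40 and -0.33 with genistein, a difference of -0.78. In 7 of the 8 ratios to Arntl both genistein libraries lay above both untreated libraries, and for Cry1 both lay below. All 8 share Arntl, so they are not separate observations. The normalised counts of 85.3% of all genes tested also did not overlap between the groups, so this separation is no distinction of the members. For groups of 2 the smallest p-value of an exact permutation test (two-sided) is 0.333, so the ratios are a description without a test.

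**Figure D3:**
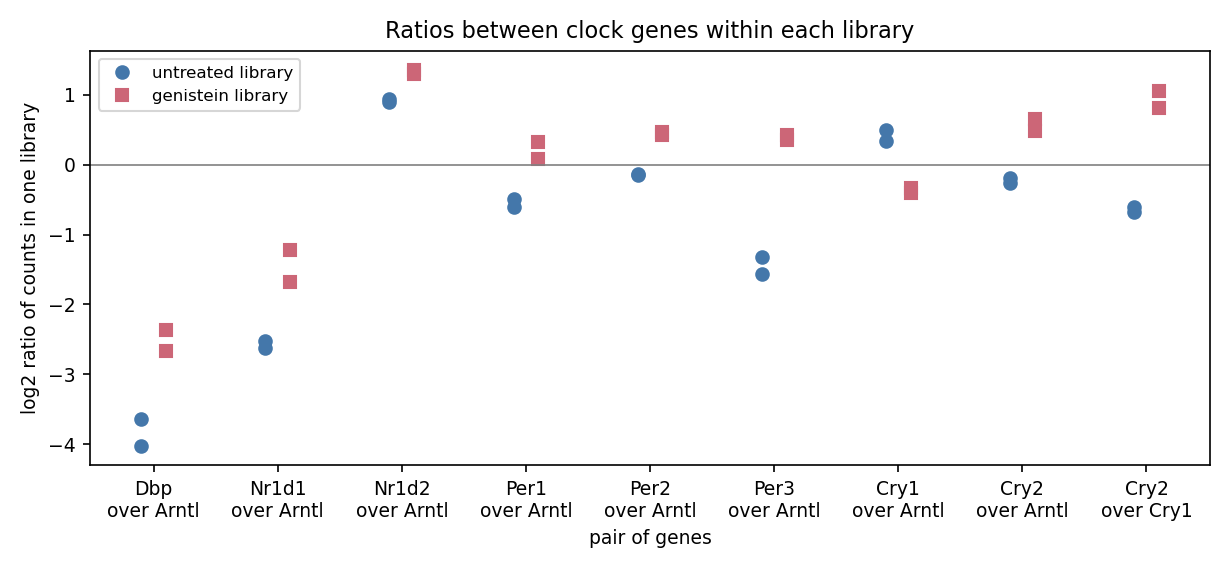
Log2 ratio of the counts of 2 clock genes within a library (vertical axis) for 9 pairs (horizontal axis), with untreated libraries as blue circles and genistein libraries as red squares. In every pair but Cry1 over Arntl, where they lie below, the genistein values lie above the untreated ones, most widely for Per3 over Arntl. The ratio of Cry2 over Cry1 crosses 0, on counts not divided by exon length.

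The genes around the core loop were described by lists, whose counts stand against 33.5% of all genes tested called higher and 38.2% called lower (71.7% in all). Among 10 paralogues and auxiliary-loop regulators, 9 passed the filter, of which 6 were higher and 1 was lower at an adjusted p under 0.05 (edgeR), with a median log2 fold change of 0.61. The PAR bZIP factor genes, relatives of Dbp, both rose, and so did Nfil3, which encodes the D-box repressor. Nfil3 had normalised counts of 687 and 720 without and of 913 and 934 with genistein (log2 fold change 0.39, adjusted p = 1.3e-05, edgeR). Per kb of exons Nfil3 lay at 339 and 355 in untreated cells and at 451 and 461 with genistein. Tef had normalised counts of 763 and 729 without and of 2485 and 2525 with genistein, which is 1.75 ± 0.05 (standard error) as a log2 fold change (adjusted p = 1.5e-14, edgeR). Per kb of exons Tef lay at 97.0 and 92.7 in untreated cells, well above Dbp on the same scale, and at 316 and 321 with genistein. Hlf rose from 2.997 and 6.35 to 13.1 and 15.2 normalised counts (log2 fold change 1.58, adjusted p = 0.0081, edgeR), a call that was lost without the first untreated library (adjusted p = 0.13) and with DESeq2 (adjusted p = 0.11), against a range from 0.0051 to 0.13 over its alternatives. Its log2 fold change was 1.13 without the first and 2.19 without the second untreated library.

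Rora, which encodes an activator at RRE sites, rose from 38.0 and 45.5 to 96.6 and 137 normalised counts (log2 fold change 1.48), while its relative Rorb, at 11.99 and 13.8 against 6.56 and 8.10, did not pass (adjusted p = 0.10, edgeR). Bhlhe41, which encodes the E-box repressor DEC2, rose from 21.0 and 27.5 to 66.6 and 72.9 (log2 fold change 1.52). Its paralogue Bhlhe40 was the 1 gene of the list called lower, going from 1871 and 1744 to 1493 and 1400 normalised counts (log2 fold change -0.32). The paralogue of Clock, Npas2, had raw counts of 0 in both untreated libraries and in the second genistein library and 2 in the first, and was not tested. The paralogue of Arntl, Arntl2, rose from 243 and 237 to 351 and 382 normalised counts (log2 fold change 0.61, adjusted p = 1.3e-05, edgeR). The largest adjusted p among Rora, Bhlhe41 and Bhlhe40 was 2.1e-05 (edgeR).

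The other lists held calls in both directions, and their counts are read against the same shares of all genes, 33.5% higher and 38.2% lower. Among 14 tested genes for kinases, ubiquitin ligases and deubiquitinases that act on clock proteins, 5 were higher and 7 lower, with a median log2 fold change of -0.13. Usp2, a deubiquitinase of clock proteins and itself rhythmic, rose from 31.0 and 32.8 to 81.6 and 82.0 normalised counts (log2 fold change 1.36). Prkaa2, which encodes a catalytic AMP kinase subunit, rose from 29.97 and 20.1 to 58.1 and 66.8 (1.304). Prkaa1, the gene of the other catalytic subunit, had 3243 and 3095 without and 2995 and 3105 with genistein. It did not pass (log2 fold change -0.06, adjusted p = 0.19, edgeR). Fbxl21 had at most 18.2 normalised counts and was not tested. Of 11 cofactor genes, 3 were higher and 5 lower (median 0.04), and 5 were higher and 5 lower with library totals alone or factors from genes alone. Wdr5, which encodes a subunit of histone methyltransferase complexes, fell from 2732 and 2640.4 to 1302 and 1376 (-1.01).

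Of 9 output genes 7 were tested, of which 4 were higher and 1 lower (median 0.14), against 71.7% of all genes called in either direction. The gene called lower was Nampt, the rate-limiting enzyme of NAD salvage, which went from 2373 and 2255 to 1072 and 1081 normalised counts (log2 fold change -1.10). Ppargc1a passed in the higher direction with few reads, at 6.99 and 6.35 against 18.8 and 10.1 normalised counts (log2 fold change 1.11, adjusted p = 0.040, edgeR). Its adjusted p ranged from 0.017 to 0.44 over the alternatives, and its log2 fold change was 0.60 without the first genistein library. Tsc22d3, at most 14.1 normalised counts, and Lonrf3, with a count of 0 in every library, were not tested.

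Among 14 input and resetting genes, 8 were higher and 3 lower (median 0.19), against 33.5% and 38.2% of all genes. Dusp1, a phosphatase gene induced by serum, glucocorticoids and stress, rose from 204 and 241 to 835 and 799 normalised counts (log2 fold change 1.88), and Fos, an immediate early gene, from 206 and 219 to 447 and 409.9 (1.01). The largest adjusted p among Usp2, Prkaa2, Wdr5, Nampt, Dusp1 and Fos was 0.00011 (edgeR).

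**Figure D4:**
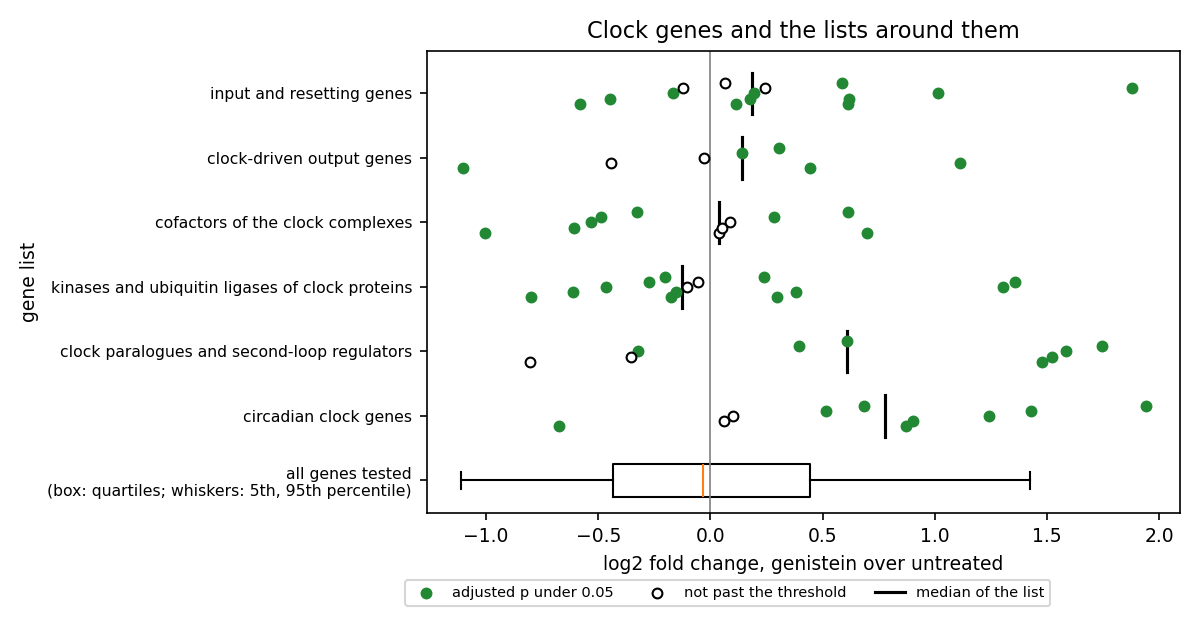
Log2 fold change (horizontal axis, genistein over untreated) of the tested genes of the clock and of 5 lists around it, with 1 point per gene, filled at an adjusted p under 0.05, and a bar at the median. The box and whiskers give the quartiles and the 5th and 95th percentiles of all genes tested. The clock genes (median 0.78) and the auxiliary-loop regulators (0.61) sit to the right, and the other lists have medians from -0.13 to 0.19.

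The 4 libraries held 28591958 to 31464284 counts over genes and repeats. Of 8 fibroblast markers 7 were measured and summed to 421357 and 433573 normalised counts without and 404432 and 394664 with genistein, while Thy1 was at 0. Of these, Fn1 was higher (log2 fold change 0.20) and the other 6 were lower, Pdgfrb by 39.7% and Col1a2 by 29.4% (5 lower with library totals alone, edgeR). The 4 blood and macrophage markers summed to 209.8 and 192 in untreated and to 546 and 569.9 in genistein libraries. This sum came from Csf1r and Cd68, while Adgre1 was at 0 and Ptprc at no more than 1.01 in any library. The 4 endothelial markers summed to 24.97 and 30.7 without and 85.3 and 97.2 with genistein, of which Kdr made up most, and the 5 epithelial markers to 718 and 672 without and 118 and 109 with it, nearly all from Krt14, with Epcam and Krt5 at 0. The sums of the muscle, neuronal and pluripotency markers were at most 30.01, 7.502 and 56.7 in any library, with Myod1, Ckm, Snap25, Rbfox3, Elavl3 and Zfp42 at 0. The part of these markers in the changes of the clock genes was not tested.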

How the data were processed

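Per the labels and the study's methods, stranded total RNA libraries without ribosomal RNA were sequenced from both ends. The authors used Trim Galore for trimming, STAR for alignment to mm10 and TEtranscripts for counting over genes and repeats. The deposited values are raw counts, not normalised. The file held 49383 entries, and 1 entry without a name (0.00208% to 0.00314% of a library) was left out. Symbols were matched for 47224 of 47937 genes.

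Genes and repeats were fitted together with edgeR 4.0.16 in R 4.3.3. The filterByExpr function kept 17358 entries, TMM factors set the effective library sizes, and groups were compared with the quasi-likelihood test and Benjamini-Hochberg adjustment over all kept entries. The standard error was the log2 fold change divided by the square root of F. The study used DESeq2 (here 1.42.0), which was run as an alternative, beside other scalings, no filter, a test against a log2 fold change of 1, leaving out each library and a replicate block. Levels per kb used merged exons of a later GENCODE release on GRCm38. The test was also run on counts simulated from the model it assumes, with dispersions taken from these 4 libraries. Such a run cannot show whether the p-values would hold across separate cultures. Counts of replicates varied beyond sampling noise (chi-square over its degrees of freedom of 5.705 for untreated and 13.1 for genistein), so each was used as a library of its own. Intervals on counts cover no PCR duplication, as there were no molecular identifiers.

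All members were named. A few genes of the lists are not reported here and entered no list count. Of each list, genes past an adjusted p of 0.05 with an absolute log2 fold change over 1 were named, with genes near 0. Arntl2, Bhlhe40, Rorb, Nfil3 and Prkaa1 were added after their values were seen. So were the overlapping genes Thra, Sphk2, D930015M05Rik and Gm45355, and the ratios of Cry2 over Cry1 and of both over Arntl. The members and lists were chosen with earlier results of these data known.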

Additional observations from a re-analysis of the deposited data

How the results depend on the processing

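The counts of clock genes called, 7 higher and 1 lower, were the same with DESeq2's size factors, no filter, DESeq2, the replicate block and each fit without a library. With library totals alone and with factors from genes alone they were 8 higher and 1 lower, Clock being added. Testing against a log2 fold change of 1 gave by construction fewer calls, with 1 higher and 0 lower clock genes and 1 past the study's thresholds. It gave 1 higher and 0 lower auxiliary-loop regulators, 0 and 0 kinases, ligases and deubiquitinases, 0 and 0 cofactors, 0 and 0 output genes, and 1 and 0 input genes. The study's thresholds passed 1 to 2 clock genes without each library, with 1 without genistein 1. Higher output genes numbered 2 with DESeq2 and 2 to 3 without each library, against 4 (Alas1 and Ppargc1a were lost with DESeq2). Higher cofactors numbered 5 with library totals alone and 5 with factors from genes alone, against 3. The median log2 fold change of the auxiliary-loop regulators was 1.02 with no filter, where 10 of them were tested, against 0.61. That of the cofactors was 0.11 with library totals alone, against 0.04. Of 231 values of 21 single genes under alternatives, 207 kept direction and side of the threshold, 22 fell short, 2 newly passed (Clock) and 0 reversed. The 22 include values from the test against a log2 fold change of 1, which by construction gave fewer calls. Deviations from the group mean did not go together in the first libraries of the 2 groups (correlation of -0.03). With 2 libraries per group the second libraries mirror the first, so this is 1 correlation. The replicate number is not taken as a pairing. The replicate block left 7 higher and 1 lower clock genes and changed 1 call among 65 listed genes (Alas1). Depth limits the genes with few reads, such as Hlf and Ppargc1a among the lists and Dbp among the members.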
